A study of Mus musculus with 8 samples.

Results

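Opposite-strand (os) genes are transcribed from the DNA strand opposite to a named partner gene, and most are long non-coding RNAs (lncRNAs), transcripts that are not translated into a protein. An os gene can lie within its partner and run against it, or start near the partner's own start and run away from it, with or without an overlap of the starts. RNAs of this kind are known from developmental gene loci, among them the loci of transcription factors that pattern the nephron, the tubular unit of the kidney. The os genes described here are those whose symbol is the symbol of another gene of the count tables followed by os and, in some cases, a number. Of 322 symbols of this form, 296 had a partner symbol, 2 were not analysed here, and 237 of the remaining 294 had at least 20 unique molecular identifiers (UMIs, each a counted RNA molecule) over all libraries. Another 44 had 1 to 19 UMIs and 13 had no UMI. The members just inside the limit were Myocos, Hand2os1 and Dgkeos with 21 UMIs each, and those just outside were Galnt6os with 19, Srrm4os with 16 and Cdk19os with 15. The 237 os genes belonged to 205 partner genes, out of 22730 genes with as many UMIs, and 58 of them shared their partner with another os gene.

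Nuclei came from a central slice of the kidney of 8 male C57BL/6J mice, 2 in each of 4 groups. Ctrl mice carried Bmal1 lox/lox alone, and cKOt mice carried in addition the transgenes Pax8-rtTA and LC-1, which together give doxycycline-induced Cre recombinase in the renal tubule, so that the clock gene Bmal1 is removed there and not in vessels or stroma. Mice of both genotypes drank doxycycline (2 mg/ml, with 20 mg/ml sucrose) for 2 weeks from 8 weeks of age, lived under 12 h of light and 12 h of dark, and were taken at 14 weeks of age at ZT4 (4 h after lights on) or ZT16. The groups are named Ctrl ZT4, Ctrl ZT16, cKOt ZT4 and cKOt ZT16, and values of the 8 libraries are given in this order. Each library held 36548873 to 54500820 UMIs in 8758 to 10975 nuclei, 81391 nuclei in all. Levels are given as CPM, the UMIs of a gene relative to the library size, on a common scale of 10 to the power of 6. For whole libraries this size was scaled by TMM, a normalization between libraries. For a group of nuclei it was the unscaled UMIs of that group. The targeted gene, listed as Arntl, had 31.5 and 27.0 CPM in Ctrl ZT4, 126 and 135 in Ctrl ZT16, 246 and 168 in cKOt ZT4, and 246 and 221 in cKOt ZT16. These counts cover the gene as a whole and not the deleted part, so they do not check the genotype labels.

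Most os genes were rare beside their partners. Together they held 818113 UMIs, or 0.216% of all UMIs, with a median of 422 UMIs per os gene against 8038 per partner. The most abundant os gene was Hnf4aos (168175 UMIs), and the 12 most abundant os genes held 64.1% of the os UMIs. In 33 pairs the os gene had more UMIs than its partner. Per kilobase of exon this was so in 44 pairs, per kilobase of gene span in 48, and by all of these measures in 26. The median ratio of os gene to partner was 0.0524 in UMIs, 0.149 per kilobase of exon and 0.302 per kilobase of span. A UMI counts a molecule and not its length, so the values per kilobase are not abundances corrected for length.

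Hnf4a, a nuclear receptor that keeps proximal tubule cells differentiated, faced the most abundant os gene. Hnf4aos reached 446 and 459 CPM in Ctrl ZT4, 456 and 422 in Ctrl ZT16, 391 and 499 in cKOt ZT4, and 465 and 400 in cKOt ZT16. All groups overlapped. Hnf4a had 177 to 277 CPM over the 8 libraries, and per kilobase of exon Hnf4aos exceeded it 4.16-fold, a ratio with the limit given above.

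Among the other abundant os genes were Oip5os1 (45154 UMIs), Brip1os (29821), Far1os (28340), Emx2os (25608), Hoxb3os (22694), Ino80dos (19211), Adap2os (14410), Pard3bos1 (14401), Nr6a1os (14369) and Man2c1os (12001). Their partners include Far1, a fatty acyl-CoA reductase of ether lipid synthesis, and Emx2 and Hoxb3, homeobox factors of urogenital development. Oip5os1 ranged from 105 to 139 CPM over the libraries and Man2c1os from 26.9 to 35.4 CPM. Far1os varied more between mice of 1 group, with 96.6 and 54.1 CPM in Ctrl ZT16. Hk1os, which faces the glycolytic enzyme gene Hk1, was far rarer, with 2.64 and 2.57 CPM in Ctrl ZT4, 2.06 and 2.70 in Ctrl ZT16, 2.06 and 2.24 in cKOt ZT4, and 1.81 and 2.06 in cKOt ZT16. Hk1 had 79.2 to 97.6 CPM.

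**Figure D1:**
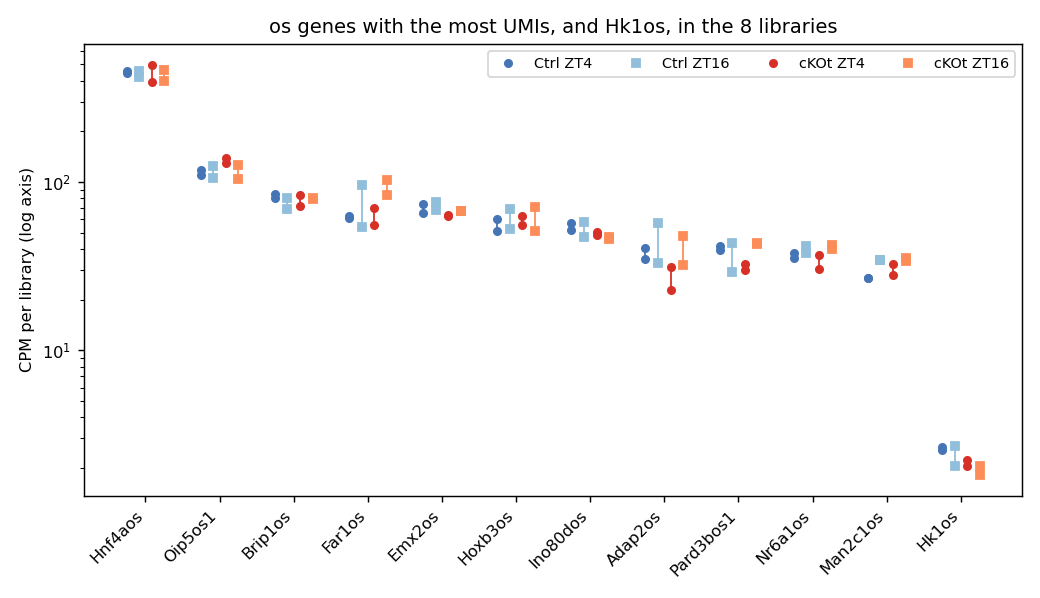
CPM of each library (log axis) for 11 of the 12 os genes with the most UMIs and for Hk1os, with 1 point per mouse and a line joining the 2 mice of a group. Hnf4aos lies above the others, and Hk1os lies between 1.81 and 2.70 CPM.

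Every os gene lay on the strand opposite its partner. In 169 pairs the gene spans overlapped with the 5′ ends over 2000 bp apart (antisense pairs), in 58 the 5′ ends were at most 2000 bp apart (near-start pairs), and in the other 10 the spans did not overlap. Of the near-start pairs, 52 overlapped in the stretch between their 5′ ends and 6 did not overlap. Exons of the 2 genes overlapped in 168 pairs. The sources used here do not say whether the counting used strand. Whether reads of an os gene and of its partner were kept apart where their spans overlap is therefore not known here. By the annotation 226 os genes were lncRNAs and 11 were protein coding.

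The near-start os genes differed from the antisense ones in the sequence at their start. RefSeq (GRCm38.p6) gave a promoter window of 300 bases for 146 of the 237 os genes and 167 of the 205 partners. The median number of CpG dinucleotides in it was 23.5 for the 40 near-start os genes with a window and 5 for the 98 antisense ones, against 19 for partners and 7 for all 27025 genes with a window. Median GC content was 62.7% for near-start os genes, 50.7% for antisense os genes and 52.7% for all genes. The motif CACGTG, to which BMAL1 with CLOCK is known to bind, reads the same on both strands. CpG and GC values are those of the first window of a gene, whereas the motif was sought in all windows of the gene. Of the 146 os genes with a window, 13 had it (8.90%), against 8.09% of all genes with a window. It was found for 7 of the 40 near-start os genes (17.5%) and 6 of the 98 antisense ones (6.12%). The motif holds a CpG, and genes matched for CpG were not compared. A match to these letters is not evidence of binding. The windows of 4 os genes that the results below turn on are printed with CpG dinucleotides in capitals. Hnf4aos (chr2:163541672-163541971, minus strand) starts within an intron of Hnf4a, Ctcflos (chr2:173124499-173124798, plus strand) and Hectd2os (chr19:36689430-36689729, minus strand) start outside their partner, and Prdm16os (chr4:154637330-154637629, plus strand) starts 408 bp from the 5′ end of Prdm16. Their CpG counts were 4, 3, 0 and 39.
Hnf4aos: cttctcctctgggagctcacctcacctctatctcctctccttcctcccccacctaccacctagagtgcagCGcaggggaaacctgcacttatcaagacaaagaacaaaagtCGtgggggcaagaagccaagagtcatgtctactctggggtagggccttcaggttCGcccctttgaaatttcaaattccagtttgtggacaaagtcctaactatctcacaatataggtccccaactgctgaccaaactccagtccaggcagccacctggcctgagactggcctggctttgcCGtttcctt
Ctcflos: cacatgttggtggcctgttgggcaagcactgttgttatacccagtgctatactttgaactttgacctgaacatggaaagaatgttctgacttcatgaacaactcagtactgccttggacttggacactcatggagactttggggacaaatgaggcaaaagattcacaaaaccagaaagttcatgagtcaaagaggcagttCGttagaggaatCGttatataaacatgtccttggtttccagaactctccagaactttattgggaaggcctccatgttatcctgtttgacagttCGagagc
Hectd2os: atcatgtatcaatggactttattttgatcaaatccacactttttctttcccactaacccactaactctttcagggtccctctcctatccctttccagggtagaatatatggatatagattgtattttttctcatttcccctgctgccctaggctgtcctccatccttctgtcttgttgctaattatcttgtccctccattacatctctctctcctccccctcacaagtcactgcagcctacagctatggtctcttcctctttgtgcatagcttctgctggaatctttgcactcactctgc
Prdm16os: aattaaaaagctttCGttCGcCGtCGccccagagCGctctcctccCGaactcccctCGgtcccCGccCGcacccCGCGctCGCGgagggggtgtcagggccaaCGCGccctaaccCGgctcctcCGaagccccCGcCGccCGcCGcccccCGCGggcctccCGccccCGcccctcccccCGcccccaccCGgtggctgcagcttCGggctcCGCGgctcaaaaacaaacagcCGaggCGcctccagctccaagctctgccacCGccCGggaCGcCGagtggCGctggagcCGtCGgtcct

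The os genes were spread over the cell types of the kidney. Nuclei were grouped into classes by marker genes, with os genes and partners kept out of the clustering and of the markers, and 17 classes with at least 10 nuclei in every library were compared. The abbreviations are PCT and PST for the proximal convoluted and straight tubule, thinDL for the thin descending limb, TAL for the thick ascending limb, MD for the macula densa, DCT1 for the early distal convoluted tubule, CNT for the connecting tubule (with the late distal convoluted tubule), CCD and MCD for cortical and medullary collecting duct, aIC and bIC for intercalated cells, UT for urothelium, Podo for podocytes, Vasc for vessels, Mes/Per for mesangial cells and pericytes, SMC/JGC for smooth muscle and juxtaglomerular cells, and Myel for myeloid cells. The summed level of the os genes was highest in PST (3130 ± 200 CPM, SD, n = 8 libraries) and PCT (2201 ± 243) and lowest in Vasc (1271 ± 98.5). This order rested on the 2 most abundant os genes: without them PST had 1343 ± 149 CPM and PCT 1078 ± 123, the lowest of the 17 classes, against 1197 ± 97.1 in Vasc and 1940 ± 221 in UT, the highest. Of 148 os genes with at least 200 UMIs, 19 had their highest mean CPM in SMC/JGC (12.8%, against 5.95% of all genes with as many UMIs), 18 in PST (12.2% against 8.45%), 15 in UT (10.1% against 10.3%) and 13 in Myel (8.78% against 13.5%).

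Few os genes were restricted to 1 class. The median os gene had 17.2% of its summed class CPM in its leading class, against 13.9% for all genes, and 8 of 148 (5.41%) had over 50%, against 8.82% of all genes. Foxd2os led in Podo, with 402 ± 61.4 CPM and 77.4% of its summed class CPM, and its partner Foxd2, a forkhead factor, led there too with 22.4 ± 9.97 CPM. Tbx3os1 had 67.4% in SMC/JGC (331 ± 78.6 CPM), whereas the T-box factor Tbx3 led in UT (180 ± 26.3 CPM). Rapgef4os1 (59.2%) and Gimap1os (55.1%) led in Vasc, as did their partners, Rapgef4, a cAMP-activated exchange factor, and Gimap1, a GTPase of immune cells. Kcnd3os (52.5%) and Runx2os1 (51.0%) led in Mes/Per together with the potassium channel gene Kcnd3 and the osteogenic factor gene Runx2. Zeb2os had 51.5% in Myel (39.0 ± 15.7 CPM), and Zeb2, a zinc finger repressor, led in Mes/Per. Speer4cos had 57.4% in DCT1, and its partner Speer4c held 4 UMIs in all. Cdr1os led in PST with 48.5%, and Cdr1 held 5 UMIs. Hnf4aos had 47.2% in PST (1074 ± 102 CPM) and a further 685 ± 128 CPM in PCT.

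**Figure D2:**
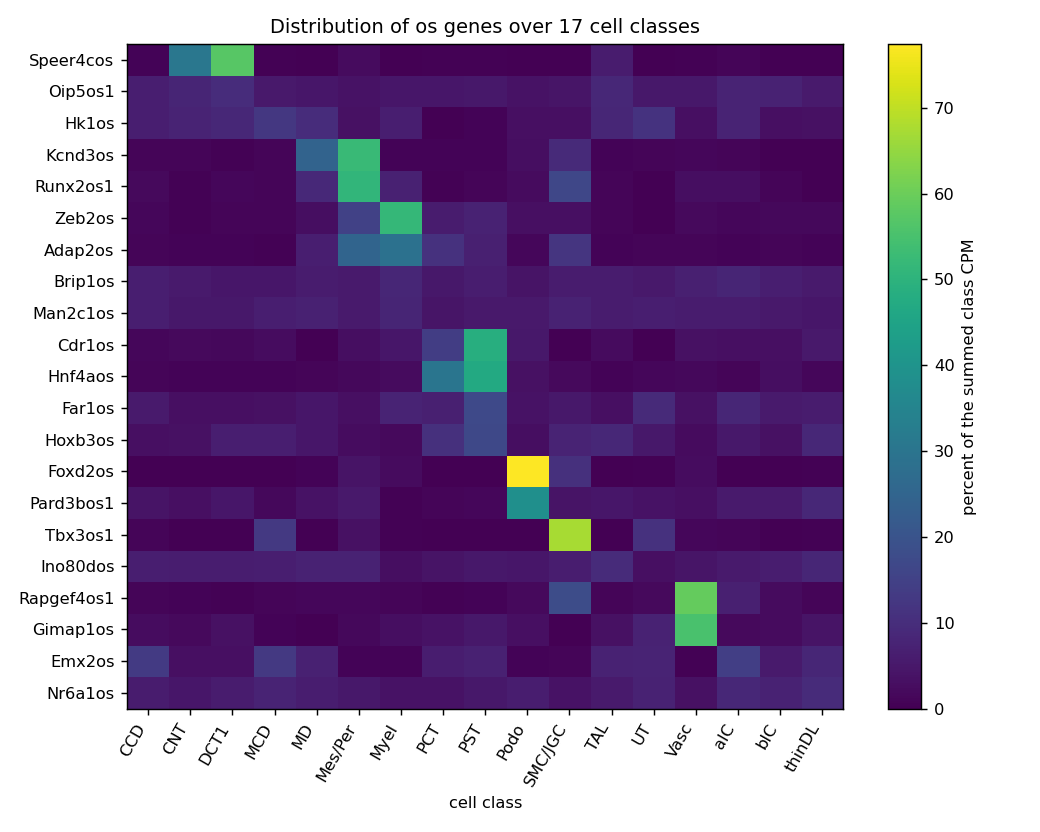
Share of the summed class CPM (percent, colour) that each os gene (rows) had in each of 17 cell classes (columns), as means over 8 libraries, for the 10 most class-restricted os genes with at least 200 UMIs, 11 of the 12 with the most UMIs, and Hk1os. Foxd2os reached 77.4% in Podo, while Brip1os, Man2c1os and Oip5os1 were spread over all classes.

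Os genes and partners tended to be high in the same classes. Over the 17 classes, the median Spearman rho between os gene and partner was 0.519 (quartiles 0.218 and 0.740) in 215 pairs whose partner had at least 200 UMIs. The same median between these os genes and all genes with at least 200 UMIs was 0.0196. The partner stood among the top 1% of all genes by rho in 74 pairs, rho was negative in 27, and os gene and partner shared their leading class in 90 pairs (41.9%). These are descriptions across classes, which share libraries and depth. Antisense pairs had a median of 0.587 (154 pairs), near-start pairs 0.310 (53 pairs) and pairs without overlap 0.119 (8 pairs). Depth moved with it: the median was 0.362 for os genes under 200 UMIs, 0.549 from 200 to under 1000 and 0.689 with at least 1000. Among antisense os genes with at least 200 UMIs, the median was 0.803 for 30 pairs with no exon overlap and 0.630 for 72 pairs whose exons overlap. With single libraries the median over all pairs, 0.519 above, was 0.307 to 0.382.

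Among pairs with at least 500 UMIs of each gene, rho was highest for Sorbs2os (0.993), 3 os genes of the SRY-box factor gene Sox5 (Sox5os4 0.988, Sox5os2 0.985 and Sox5os3 0.983) and Far1os (0.978). It was lowest for Frmd8os (-0.45), Stamos (-0.40), Map2k3os (-0.39), Cep83os (-0.37) and Atad3aos (-0.28), of which all but Frmd8os are near-start. Sorbs2os led in CCD with 61.6 ± 18.1 CPM, as did Sorbs2, an adaptor of the actin cytoskeleton, with 730 ± 35.9. Of all genes ranked, none had a higher rho with Emx2os than Emx2 (0.924), and none a higher rho with Adap2os than Adap2 (0.936). The os gene of Hk1 was less like its partner (rho 0.601): Hk1os was highest in MCD (7.67 ± 3.49 CPM) and Hk1 in TAL (317 ± 34.3 CPM).

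**Figure D3:**
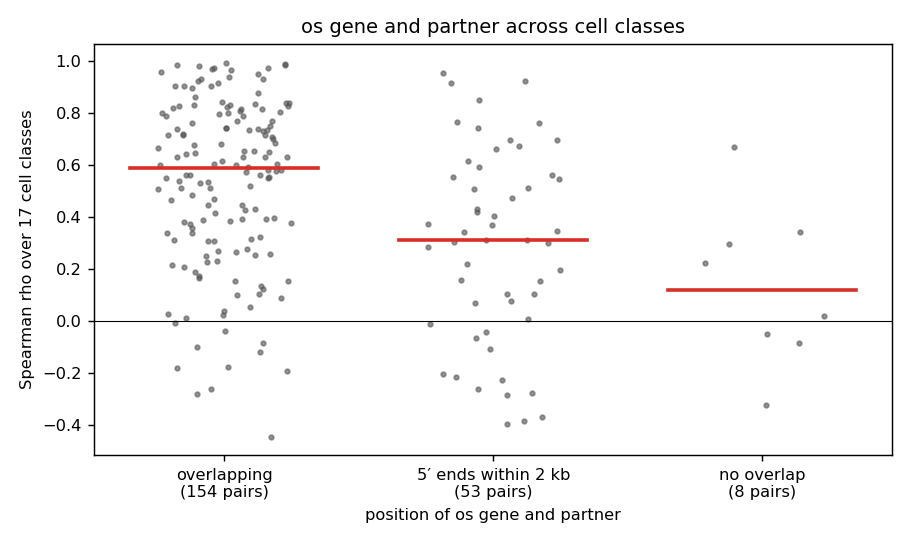
Spearman rho between os gene and partner over 17 cell classes (1 point per pair, points spread sideways for legibility) for overlapping pairs, pairs with 5′ ends within 2000 bp and pairs without overlap, with the median of each as a red line. The medians are 0.587, 0.310 and 0.119, and each set reaches below 0.

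By role, the os genes of kidney and developmental transcription factors had the highest median correlation of the 3 partner lists. The list held 35 os genes of 30 partners, and 30 pairs had a median rho of 0.723. Besides those above, Lhx1os led in DCT1 (175 ± 22.4 CPM) as did Lhx1, a LIM homeobox factor of nephron formation. Mecomos (60.8 ± 10.8 CPM) led in the same class as Mecom (rho 0.963), and Prdm16os led in TAL with 80.2 ± 14.2 CPM (rho 0.951), while Prdm16 was highest in CCD (809 ± 146 CPM). Junos led in UT (425 ± 84.8 CPM) and Jun, a stress-induced AP-1 factor, in PCT. Hoxb3os led in PST (104 ± 16.6 CPM), while Hoxb3 was highest in CCD (254 ± 27.7 CPM; rho 0.164). The os genes of growth factor, receptor and signalling genes (40 os genes, 39 pairs) had a median rho of 0.505, and those of metabolism and transport genes (28 os genes, 24 pairs) one of 0.422. In the former, Egfros led in MCD with 66.9 ± 11.5 CPM, as did Egfr, the receptor of epidermal growth factor. In the latter, PST led for Far1os (158 ± 48.7 CPM), Sardhos (34.8 ± 12.2), Acss2os (21.3 ± 6.56) and Fhitos (19.5 ± 5.03).

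Os genes and partners were also found in the same nuclei. Counts were not corrected for RNA from outside the nucleus, and doublets (2 nuclei read as 1) were kept. The 163 pairs compared were those with at least 20 nuclei positive for both genes, a choice that itself favours pairs detected together, and the same value for other gene pairs was not computed. Among nuclei of the same library, cluster and decile of UMI depth, the odds of a partner UMI were higher in nuclei with an os UMI in 148 of these pairs, with a median odds ratio of 1.57. The median was 1.77 in 123 antisense pairs and 1.11 in 36 near-start pairs. The ratio was above 1 in all 8 libraries for 74 pairs, among them Fhitos with 7.45 ± 2.25 (SD, n = 8 libraries) and Pard3bos1 with 3.08 ± 0.452.

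Time of day and genotype were compared over whole libraries and within cell classes, with the mouse as the replicate. Whether a difference over a whole library comes from fewer nuclei of a type or less RNA per nucleus cannot be told apart in the sums. In Ctrl mice, none of 210 os genes tested differed between ZT16 and ZT4 by edgeR's quasi-likelihood test with Benjamini-Hochberg adjustment (0.208% of all genes were called). At an unadjusted p under 0.05 there were 18 os genes, 8.57% against 10.2% of all genes, and DESeq2 called 3 (1.43%, against 1.44% of all genes). The os genes with the smallest p were Unc45bos, Speer4cos and Slc6a19os. Unc45bos had 1.23 and 1.35 CPM in Ctrl ZT4, 2.88 and 2.77 in Ctrl ZT16, 1.49 and 1.44 in cKOt ZT4, and 3.04 and 2.79 in cKOt ZT16. All 4 libraries of ZT16 lay above all 4 of ZT4, with a log2 difference of 1.13 ± 0.225 (SE, adjusted p = 0.110, edgeR) in Ctrl and 0.99 ± 0.223 (adjusted p = 0.204, edgeR) in cKOt. Unc45b, a myosin chaperone gene, had 5.63 to 6.93 CPM. Speer4cos had a log2 difference of -1.82 ± 0.398 (adjusted p = 0.130, edgeR).

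Of 190 partners, Slc6a19, the neutral amino acid transporter of the proximal tubule brush border, was lower at ZT16 in Ctrl. It had 147 and 168 CPM in Ctrl ZT4, 66.9 and 48.7 in Ctrl ZT16, 96.3 and 125 in cKOt ZT4, and 65.0 and 65.0 in cKOt ZT16. It fell by 1.45 ± 0.183 on the log2 scale in Ctrl (adjusted p = 0.0215, edgeR), and its difference in cKOt was -0.76 ± 0.180 (adjusted p = 0.225, edgeR). The call in Ctrl was lost with the replicate block (log2 -1.44) and without either Ctrl ZT4 library or Ctrl ZT16 replicate 2 (log2 -1.24 to -1.53). Slc6a19os had 0.933 and 0.921 CPM in Ctrl ZT4, 0.295 and 0.254 in Ctrl ZT16, 0.480 and 0.878 in cKOt ZT4, and 0.409 and 0.285 in cKOt ZT16. Its Ctrl libraries of ZT16 lay below those of ZT4, with a log2 difference of -1.74 ± 0.403 (adjusted p = 0.154, edgeR), from 11 to 47 UMIs per Ctrl library. Of the 210 os genes tested, 76 had no overlap between these groups.

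In cKOt mice, none of 207 os genes differed between the time points (0.00955% of all genes were called). Here 32 os genes (15.5%) had an unadjusted p under 0.05, against 8.79% of all genes, and DESeq2 called 3 (1.45%, against 1.02% of all genes). The smallest p was that of Ctcflos, which lay lower at ZT16 than at ZT4 with a log2 difference of -1.56 ± 0.274 (adjusted p = 0.130, edgeR). Of the 76 nuclei of a class with adipocyte markers, described below with its Ctcflos values, 66 were in the cKOt ZT4 libraries, and without these 76 nuclei the Ctcflos difference was 0.27 (adjusted p = 0.907, edgeR). Cdr1os, which is known as the precursor locus of a circular RNA that binds miR-7, had 2.93 and 2.29 CPM in Ctrl ZT4, 5.16 and 6.24 in Ctrl ZT16, 0.744 and 1.62 in cKOt ZT4, and 4.36 and 3.82 in cKOt ZT16. Both libraries of ZT16 lay above both of ZT4 in each genotype, by 1.78 ± 0.337 on the log2 scale in cKOt (adjusted p = 0.142, edgeR) and 1.13 ± 0.319 in Ctrl (adjusted p = 0.254, edgeR). The time points did not overlap for 86 of 207 os genes in cKOt and 76 of 210 in Ctrl. Without each library in turn, the Cdr1os difference in cKOt ranged from 1.35 to 2.46. No os gene and no partner had a time effect that differed between the genotypes (216 os genes and 191 partners tested, 0.0139% of all genes called; 13 os genes and 10 partners had an unadjusted p under 0.05, 6.02% and 5.24% against 4.31% of all genes, and DESeq2 called none, against 0.213% of all genes).

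Between the genotypes at ZT4, 1 of 209 os genes was called (0.446% of all genes), and 18 had an unadjusted p under 0.05 (8.61%, against 8.64% of all genes). DESeq2 called 2 (0.957%, against 1.82% of all genes). The os gene called by edgeR was Ctcflos, which faces Ctcfl, a germ-line paralogue of the chromatin insulator gene Ctcf. Ctcfl was not called (log2 difference 1.74 ± 0.543, adjusted p = 0.315, edgeR). Its cKOt ZT4 and Ctrl ZT4 libraries did not overlap, which was so for 81 of the 189 partners tested. Ctcflos had 1.31 and 1.80 CPM in Ctrl ZT4, 1.33 and 1.57 in Ctrl ZT16, 5.71 and 4.85 in cKOt ZT4, and 1.46 and 2.13 in cKOt ZT16. Both cKOt ZT4 libraries stood above the other 6, with a log2 difference from Ctrl ZT4 of 1.75 ± 0.278 (adjusted p = 0.0354, edgeR). The call held without Ctrl ZT16 replicate 2 or either cKOt ZT16 library and was lost without each of the other 5 libraries (log2 1.55 to 2.02). Its UMIs lay in few nuclei. The class with adipocyte markers (Adipo) held 76 of 81391 nuclei (0.0934%), 66 of them in the cKOt ZT4 libraries, and 380 of 939 Ctcflos UMIs. In cKOt ZT4, 351 of 481 Ctcflos UMIs (73.0%) were in Adipo nuclei. A Ctcflos UMI was found in 89.5% of Adipo nuclei and 0.647% of the others, at median depths of 5439.5 and 3681 UMIs. Its level in Adipo nuclei was 1239 and 615 CPM in the cKOt ZT4 libraries (25 and 41 nuclei) and 219 to 860 CPM in the 4 other libraries with such nuclei (1 to 5 each), against 1.48 CPM in all other nuclei. Without Adipo nuclei the log2 difference was -0.03 (adjusted p = 0.991, edgeR), and no os gene was called. The summed CPM of the 5 adipocyte markers (Adipoq, Plin1, Ucp1, Cidea and Plin4) was 2.21 and 2.35 in Ctrl ZT4, 3.69 and 1.66 in Ctrl ZT16, 11.9 and 26.3 in cKOt ZT4, and 1.99 and 1.41 in cKOt ZT16, and Ucp1 was at 0 in 1 Ctrl ZT16 library.

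**Figure D4:**
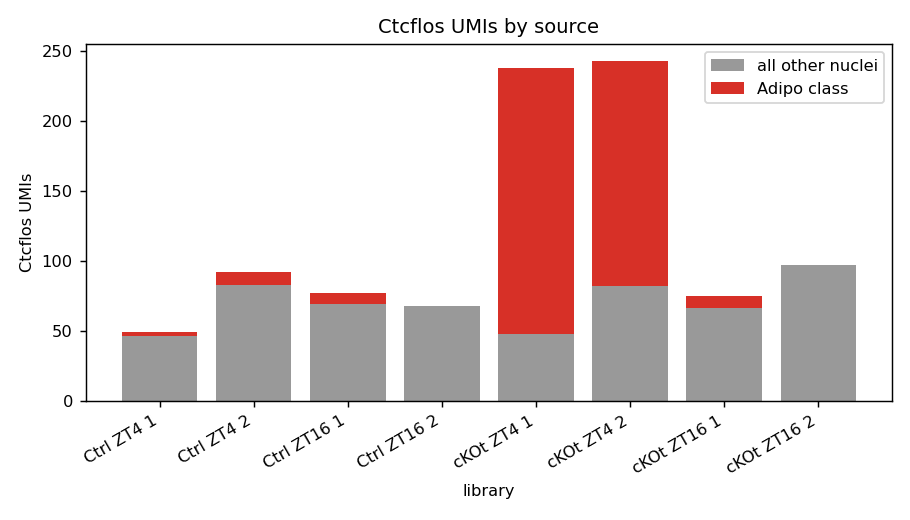
Ctcflos UMIs in each of the 8 libraries (bars), split into UMIs in nuclei of the Adipo class (red) and in all other nuclei (grey). The grey parts range from 46 to 97 UMIs in all groups, and the red parts make up 351 of the 481 UMIs of cKOt ZT4.

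Rbm46os and Plxna4os3 came next at ZT4. Rbm46os had 2.08 and 3.08 CPM in Ctrl ZT4, 2.77 and 1.36 in Ctrl ZT16, 11.4 and 6.51 in cKOt ZT4, and 4.66 and 3.01 in cKOt ZT16, a log2 difference at ZT4 of 1.79 ± 0.404 (adjusted p = 0.132, edgeR). Plxna4os3, opposite the semaphorin co-receptor gene Plxna4, had a log2 difference of -0.93 ± 0.236 (adjusted p = 0.186, edgeR).

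The partner Fhad1 differed between the genotypes at both times. Fhad1, which encodes a protein with a forkhead-associated domain, had 2.45 and 1.94 CPM in Ctrl ZT4, 1.84 and 1.83 in Ctrl ZT16, 33.8 and 35.3 in cKOt ZT4, and 58.6 and 44.1 in cKOt ZT16. Every cKOt library lay above every Ctrl library. The difference was 15.8-fold at ZT4 (log2 3.98 ± 0.193, adjusted p = 5.38e-05, edgeR) and 28.0-fold at ZT16 (log2 4.81 ± 0.199, adjusted p = 2.53e-05, edgeR). Of 189 partners at ZT4 Fhad1 alone was called, and of 190 at ZT16 Fhad1 and Pcsk2 (0.143% of all genes were called at ZT16). Pcsk2, a prohormone convertase gene, had 0.933 and 1.33 CPM in Ctrl ZT4, 0.763 and 1.04 in Ctrl ZT16, 2.49 and 3.73 in cKOt ZT4, and 3.88 and 4.39 in cKOt ZT16. It rose 4.61-fold at ZT16 (SE 0.309 on the log2 scale, adjusted p = 0.0376, edgeR), and the difference at ZT4 was 1.45 ± 0.305 on the log2 scale (adjusted p = 0.108, edgeR). The Pcsk2 call was lost without any 1 of the 4 libraries of ZT16 (log2 1.99 to 2.44).

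None of 206 os genes was called between the genotypes at ZT16 (13 with an unadjusted p under 0.05, 6.31% against 6.22% of all genes, and 1 called by DESeq2, 0.485% against 0.939% of all genes). The os gene Fhad1os1 had 2 and 0 UMIs in Ctrl ZT4, none in Ctrl ZT16, 3 and 4 in cKOt ZT4, and 19 and 15 in cKOt ZT16. Far2os2 had 5 UMIs in each Ctrl ZT16 library and none in cKOt ZT16. Each of these os genes had the 5 UMIs in both libraries that a test required only in the group where it was higher. The filter thus set the direction of these differences, neither of which was called (adjusted p = 0.0863 and 0.197, edgeR). Dio3os, opposite the deiodinase gene Dio3, had a log2 difference of -1.35 ± 0.373 (adjusted p = 0.411, edgeR). Pcsk2os1 had 1 to 8 UMIs per library. Hk1os and Hk1 were not called in any comparison: the log2 differences of Hk1os were -0.13 ± 0.235 between the time points in Ctrl and -0.27 ± 0.237 between the genotypes at ZT4.

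By role, 1 partner of the metabolism and transport list fell in Ctrl (Slc6a19, of 23 tested), and no other member of the 3 lists, os gene or partner, was called over whole libraries. The median log2 difference between the time points in Ctrl was 0.03 for 31 os genes of transcription factors, -0.02 for 25 of metabolism and transport and -0.18 for 36 of signalling genes, against -0.04 for all os genes tested and 0.0045 for all genes. Between the genotypes at ZT4 these medians were -0.13, -0.22 and -0.21, against -0.14 for all 209 os genes tested and 0.0041 for all genes.

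Within the cell classes, 4 tubule segments (PCT, PST, DCT1 and CNT) and 2 classes outside the tubule (Vasc and Mes/Per) were tested. TAL was tested as its 2 clusters, a choice made after seeing the data. In cluster 7 (3681 nuclei) all 6 TAL markers were raised, but none of them was among its 10 leading genes. Those genes include Cldn16, Casr, the MD marker Enox1 and the DCT1 marker Egf. Some clusters of PST, PCT and Mes/Per also had none of their own markers among their 10 leading genes, and these classes were not split. Cluster 1 (6614 nuclei) had 2 TAL markers among its leading genes. Between the time points in Ctrl, Hectd2os was called in PCT (1 of 111 os genes tested there, against 0.625% of all genes). Hectd2 encodes a ubiquitin ligase. Hectd2os had 6.88 and 5.38 CPM in PCT of Ctrl ZT4, 1.20 and 0.773 in Ctrl ZT16, 2.81 and 4.21 in cKOt ZT4, and 2.17 and 1.27 in cKOt ZT16. The Ctrl values rest on 57 and 45 UMIs at ZT4 and on 14 and 5 at ZT16. Hectd2os fell by 2.58 ± 0.418 on the log2 scale in Ctrl (adjusted p = 0.0294, edgeR), and its difference in cKOt was -1.01 ± 0.378 (adjusted p = 0.493, edgeR). Hectd2 was not called, with 11.4 and 7.30 CPM in Ctrl ZT4 and 11.6 and 9.89 in Ctrl ZT16 (log2 difference 0.20 ± 0.247, adjusted p = 0.811, edgeR). The Hectd2os call held without 4 of the 8 libraries in turn and was lost without each of the other 4.

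In cluster 1 of TAL, Fhitos was called between the time points in Ctrl (1 of 98 os genes tested, against 1.15% of all genes). It faces Fhit, a diadenosine triphosphate hydrolase gene at a fragile site. Fhitos had 29.4 and 32.1 CPM in cluster 1 of Ctrl ZT4, 14.8 and 10.0 in Ctrl ZT16, 16.1 and 18.7 in cKOt ZT4, and 12.4 and 12.2 in cKOt ZT16. It fell by 1.29 ± 0.242 on the log2 scale in Ctrl (adjusted p = 0.0117, edgeR). Fhit had 2767 and 2545 CPM in Ctrl ZT4 and 1397 and 1640 in Ctrl ZT16, and fell by 0.79 ± 0.174 (adjusted p = 0.0360, edgeR). In cKOt the differences were -0.48 ± 0.261 for Fhitos (adjusted p = 0.515, edgeR) and -0.65 ± 0.174 for Fhit (adjusted p = 0.109, edgeR). Mkln1os was called in cluster 1 between the time points in cKOt (1 of 94 tested, against 0.767% of all genes). It had 65.9 and 48.3 CPM in Ctrl ZT4, 97.9 and 79.5 in Ctrl ZT16, 49.5 and 40.4 in cKOt ZT4, and 87.9 and 89.3 in cKOt ZT16. Mkln1os rose by 1.02 ± 0.182 on the log2 scale in cKOt (adjusted p = 0.0145, edgeR), with 0.68 ± 0.179 in Ctrl (adjusted p = 0.0884, edgeR). Mkln1, a subunit of a ubiquitin ligase complex, had 325 to 415 CPM there with no difference called. Both calls held without 5 of the 8 libraries in turn. Fhitos was lost without either Ctrl ZT4 library or Ctrl ZT16 replicate 2, and Mkln1os without cKOt ZT4 replicate 2 or either cKOt ZT16 library. In cluster 7 no os gene was called, with -0.68 ± 0.280 for Fhitos in Ctrl (adjusted p = 0.383, edgeR; 0.837% of all genes) and 0.38 ± 0.224 for Mkln1os in cKOt (adjusted p = 0.739, edgeR; 0.242%). With TAL as 1 class, Fhitos fell by 1.05 ± 0.209 on the log2 scale in Ctrl (adjusted p = 0.0217, edgeR). Mkln1os rose there by 0.81 ± 0.160 in cKOt (adjusted p = 0.0333, edgeR). The difference between the clusters was not tested.

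In CNT, Speer4cos was called between the time points in cKOt (1 of 81 tested, against 0.513% of all genes). Its UMIs in CNT were 11 and 13 in Ctrl ZT4, 4 and 5 in Ctrl ZT16, 19 and 20 in cKOt ZT4, and 4 and 2 in cKOt ZT16. It fell by 2.93 ± 0.572 on the log2 scale (adjusted p = 0.0138, edgeR), but had enough UMIs for a test only at ZT4, so that the filter set the direction. The class is 1 cluster of 3230 nuclei with 5 CNT markers and 3 markers of the late distal convoluted tubule among its leading 10 genes, and with 50 principal components a cluster of each kind was found (1486 and 1389 nuclei) and Speer4cos was not tested in CNT. The call held without 5 of the 8 libraries in turn (largest adjusted p over its alternatives 0.168). In DCT1 its UMIs were 15 and 22 in Ctrl ZT4 and 1 and 5 in Ctrl ZT16, again enough for a test only at ZT4 (log2 difference -2.43 ± 0.580, adjusted p = 0.0573, edgeR). Between the genotypes no os gene was called in any class or cluster at ZT4 (with TAL as 1 class, DESeq2 called 2, 0.284% of its tests of os genes, against 0.692% over all genes). An unadjusted p under 0.05 by edgeR was found for 5 to 11 of the 69 to 136 os genes tested per class or cluster, a share of 4.92% in PCT (8.38% of all genes), 5.88% in PST (8.40%), 5.81% in cluster 1 (7.53%), 7.25% in cluster 7 (6.26%), 9.59% in DCT1 (5.89%), 7.04% in CNT (6.36%), 5.94% in Vasc (4.66%) and 11.8% in Mes/Per (8.14%). Of all genes at ZT4, 0.808% were called in PCT, 0.609% in PST, 0.547% in cluster 1, 0.213% in cluster 7, 0.259% in DCT1, 0.254% in CNT, 0.103% in Vasc and 0.021% in Mes/Per. At ZT16 Fhad1os1 was called in PST (1 of 138 tested, against 0.523% of all genes). Its UMIs there were 1 and 0 in Ctrl ZT4, none in Ctrl ZT16, 3 and 4 in cKOt ZT4, and 17 and 13 in cKOt ZT16, with an adjusted p of 0.0441 (edgeR). It had enough UMIs for a test only through the cKOt ZT16 group, so that the filter set the direction and the call does not support a difference. Of 11 alternatives 1 called it, and the call was lost without any 1 of the 8 libraries. Fhad1 rose in the same class from 1.24 and 2.03 CPM in Ctrl ZT4 to 101 and 124 in cKOt ZT4 (67.4-fold, adjusted p = 2.84e-05, edgeR) and from 1.67 and 1.73 in Ctrl ZT16 to 167 and 146 in cKOt ZT16 (94.3-fold, adjusted p = 1.5e-05, edgeR).

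**Figure D5:**
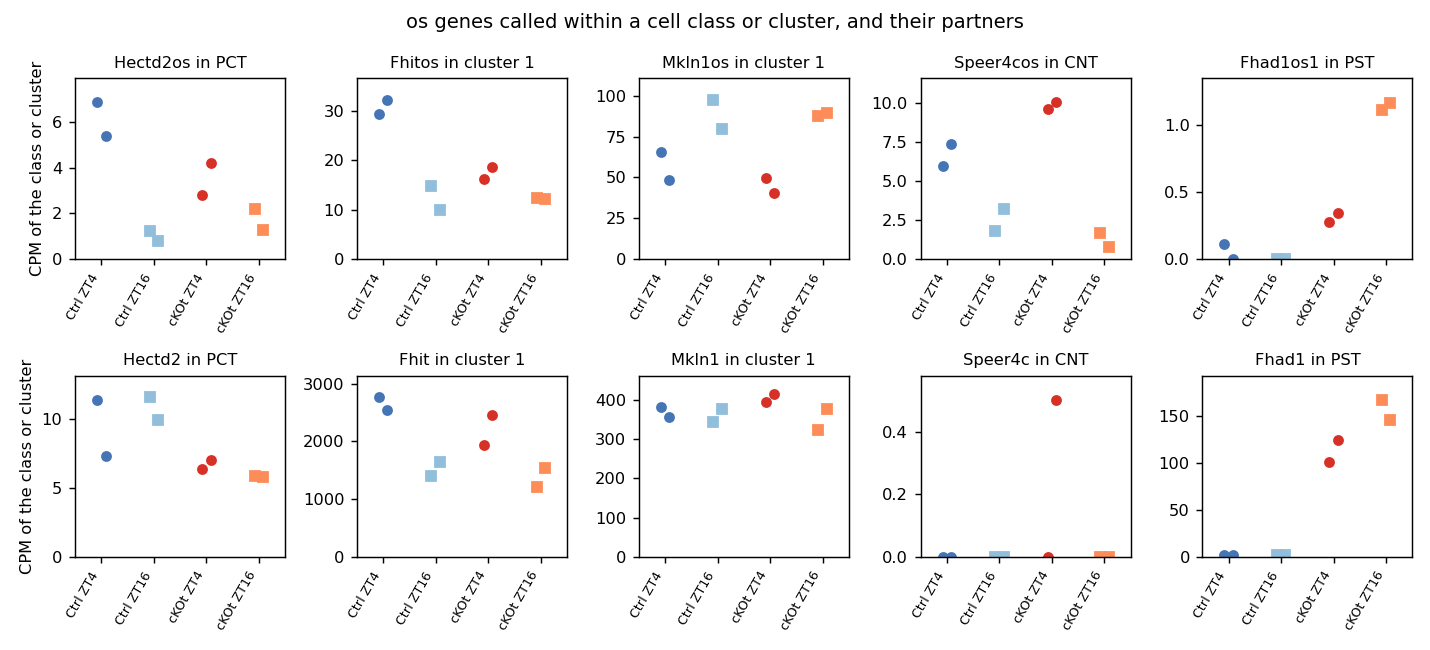
CPM within the named cell class, or in cluster 1 of TAL (linear axes from 0, 1 point per mouse, 4 groups along each axis) for the 5 os genes called there (upper row) and their partners (lower row). Hectd2os fell 2.58 on the log2 scale in PCT of Ctrl mice while Hectd2 had overlapping values. For Fhad1os1 and Speer4cos only the higher group had enough UMIs for a test, so that the filter set the direction of these calls.

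Among the partners, Bach2 showed the most class calls. Bach2, a transcriptional repressor best known from lymphocytes, had 86.0 and 76.5 CPM in cluster 1 of TAL in Ctrl ZT4, 29.4 and 33.3 in Ctrl ZT16, 69.7 and 71.2 in cKOt ZT4, and 20.0 and 26.0 in cKOt ZT16. There it fell by 1.36 ± 0.184 on the log2 scale in Ctrl (adjusted p = 0.00111, edgeR) and by 1.59 ± 0.193 in cKOt (adjusted p = 0.00135, edgeR). In cluster 7 it fell by 1.44 ± 0.190 in Ctrl (adjusted p = 0.000351, edgeR) and by 1.49 ± 0.193 in cKOt (adjusted p = 0.000672, edgeR). In DCT1 it fell by 2.12 ± 0.235 in Ctrl and by 1.89 ± 0.236 in cKOt (0.765% and 0.135% of all genes were called). In CNT it fell by 1.31 ± 0.229 in Ctrl and by 1.38 ± 0.229 in cKOt (0.86% of all genes were called in Ctrl). It fell also in Mes/Per of Ctrl (-1.35 ± 0.190, adjusted p = 0.0192, edgeR; 0.116% of all genes). Bach2os had enough UMIs to be tested only in PCT and PST, where its values per library were 1 to 10 and 8 to 23 UMIs and neither it nor Bach2 was called. Cep112, a centrosomal gene, fell in PCT of Ctrl (log2 -1.02 ± 0.170) and in DCT1 (-1.78 ± 0.250) and CNT (-0.87 ± 0.199) of cKOt. Bcas3 fell in DCT1 (-1.08 ± 0.174), CNT (-0.66 ± 0.144) and cluster 7 of TAL (-0.65 ± 0.149) of Ctrl, Fhit in CNT of Ctrl (-0.68 ± 0.156), and Rbm3, a cold-induced RNA-binding protein gene, rose by 0.79 ± 0.158 on the log2 scale in cluster 1 of TAL of Ctrl. In the same cluster Pmepa1 rose by 1.31 ± 0.268 in Ctrl, Kirrel3 fell by 1.74 ± 0.336 in cKOt, and Tmcc3 was 0.97 ± 0.177 higher in cKOt than in Ctrl at ZT4. Tbx3 rose 2.30-fold in Vasc of cKOt (0.179% of all genes were called). Between the genotypes, the DNA methyltransferase gene Dnmt3b rose 3.38-fold in PCT at ZT4, and Pcsk2 6.30-fold in PST at ZT16. Fhad1 rose also in PCT, 7.88-fold at ZT4 (adjusted p = 0.00306, edgeR) and 19.9-fold at ZT16 (adjusted p = 0.00256, edgeR; 0.253% of all genes). Between the time points in Ctrl, Slc6a19 fell in PCT by 1.47 ± 0.215 on the log2 scale (adjusted p = 0.0189, edgeR).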

How the data were processed

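Single-nucleus RNA was counted by the 10x method, in which each molecule carries a UMI, in 1 library per mouse, and reads were turned by the authors into deposited tables of raw UMI counts per gene and barcode. The submitters' processing notes name Cell Ranger 7.1.0, bcl2fastq 2.20, Seurat 5 and GRCm39. The study's results also name GRCm39 for the annotation, whereas its methods name an mm10 reference, so the sources differ on the build. The sources used here do not state whether introns and strand entered the counting.

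Barcodes numbered 82784, and 81391 were retained after removal of those under 500 genes, under 800 UMIs or over 2% mitochondrial UMIs. Counts of replicates differed beyond sampling noise (chi-square over its degrees of freedom 33.6 to 60.5), and 851 barcodes occurred in more than 1 library. Doublets (5.37% of nuclei) were called and kept. Clustering with 1000 principal components used mRNAs only, without os genes and partners. Classes were named from the study's markers for its own cell types, and from adipocyte markers for Adipo, which is not among them. The limits were set after the clusters had been seen (marker z of at least 0.9, 3 markers up 2-fold), and 7.62% of nuclei stayed unnamed.

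UMIs were summed per library, or per library and class, and tested with edgeR 4.0.16 in R 4.3.3 (quasi-likelihood, TMM, 4 groups in 1 fit of all genes other than mitochondrial ones), for genes with at least 5 UMIs in both replicates of a compared group, with Benjamini-Hochberg adjustment at 0.05. Standard errors are the log2 difference divided by the square root of F. CPM of whole libraries use the library size scaled by TMM. CPM of a group of nuclei use the unscaled UMIs of that group, so the 2 kinds of CPM are not on the same scale. With 2 mice per group a call can rest on 1 mouse. Tested on simulated data for the Ctrl comparison of 21065 genes, 83.0% of 200 changed genes were recovered, and 62.1% of those changed 2-fold. These shares are over genes of all levels. None is given for os genes, most of which were rare beside their partners. Alternatives were DESeq2 1.42.0, RLE factors, no filter, separate fits of lncRNAs and protein-coding genes, a replicate block, 50 principal components, and each library left out.

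Named genes were Hk1os and Hk1, os genes and partners past the limit, the 3 os genes of smallest p per pairwise comparison, the 12 most abundant and the 10 most class-restricted os genes, the 5 highest and 5 lowest correlations, and members of 3 partner lists with at least 200 UMIs. The members and lists were chosen with earlier results of these data known. Rbm46os, Plxna4os3 and the other os genes given by rank were named by this rule, and the 4 printed windows were chosen after their values were seen. Of the symbols of this form 2 were not analysed, and results of a further pair are not reported here.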

Additional observations from a re-analysis of the deposited data

Results flagged for a closer look

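A group of 1700 nuclei (70 to 276 per library) that no marker list named lay outside the comparison of named classes. Nrip3, Megf11, Psca and Sptssb were among its leading genes. Its 10 leading genes held 1 marker of the thin ascending limb, which is not among the 17 classes. Of os genes with at least 200 UMIs, 2 had over 2 times the level of their leading named class there. Os genes highest there by a smaller margin, or with few UMIs there, are not listed. Prox1os, opposite the lymphatic and nephron homeobox gene Prox1, had 165 ± 16.9 CPM there (SD, n = 8 libraries; 141 to 188), against 19.3 ± 4.36 in TAL, its leading named class. Prox1 had 678 ± 61.3 CPM in the same nuclei and 182 ± 27.7 in TAL. Otx2os1 had 7.20 ± 3.81 CPM there, from 52 UMIs, against 1.22 ± 1.70 in Podo, while Otx2 had no UMI there. Ctcflos had 781 CPM over the pooled nuclei of the Adipo class, with 219 to 1239 CPM in single libraries, which had too few nuclei per library for the class comparison.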

How the results depend on the processing

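Counts of os genes called over whole libraries are given in the order Ctrl time, genotype at ZT4, genotype at ZT16 and cKOt time, where the main values were 0, 1, 0 and 0. DESeq2 called 3, 2, 1 and 3, the fit with no filter 2, 2, 1 and 2, and separate fits of lncRNAs and protein-coding genes 0, 2, 1 and 2. As shares of the os genes tested these were 1.43%, 0.957%, 0.485% and 1.45% by DESeq2 (1.44%, 1.82%, 0.939% and 1.02% of all genes), 0.844%, 0.844%, 0.422% and 0.844% with no filter (0.940%, 1.13%, 0.598% and 0.577%), and 0%, 0.957%, 0.485% and 0.966% in separate fits (0.240%, 0.519%, 0.222% and 0.111%). The os genes gained were Cdr1os, Ctcflos, Dnm3os, Fhad1os1, Pard3bos3, Rbm46os, Speer4cos and Unc45bos. For partners (1, 1, 2 and 0), DESeq2 called 4, 4, 2 and 3, and the fit with no filter 3, 3, 2 and 1, which is 2.11%, 2.12%, 1.05% and 1.58% of the partners tested by DESeq2 and 1.48%, 1.48%, 0.985% and 0.493% with no filter, against the same shares of all genes. Without each library in turn, os genes called ranged from 0 to 1 at ZT4 and stayed at 0 in the other comparisons, and partners from 0 to 1 in Ctrl time, 1 to 1 at ZT4 and 1 to 2 at ZT16. Within classes, with TAL as 1 class, the main fit called 2, 0, 1 and 2 os genes. These were 0.283%, 0%, 0.139% and 0.282% of its tests of os genes, against 0.587%, 0.373%, 0.211% and 0.221% over all genes. As many were called with the clusters of TAL tested 1 by 1, chosen after seeing the data. DESeq2 gave 6, 2, 1 and 4 (0.850%, 0.284%, 0.139% and 0.565% of its tests of os genes, against 0.902%, 0.692%, 0.463% and 0.519% over all genes).

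Same-numbered libraries share only a number, with 2 pairs per comparison and correlations of their deviations of -0.26, 0.55, 0.50 and 0.23 over 9818 genes. With the replicate block, partners called in Ctrl time went to 0, os genes called within classes at ZT16 to 0 and those of the other comparisons within classes to 3, 0 and 3. In Ctrl time, genotype at ZT4, genotype at ZT16 and cKOt time, these class calls were 0.425%, 0%, 0% and 0.424% of os tests. The shares over all genes were 0.812%, 0.421%, 0.217% and 0.291%. Other counts of os genes and partners over whole libraries were within 1.5 times the main value, while all genes called in Ctrl time went from 44 to 22 and those with a time effect that differed between the genotypes from 3 to 0. With the numbers crossed in the 4 Ctrl libraries, chosen after seeing the data, 5 os genes and 3 partners were called (2.38% and 1.58%, against 2.28% of all genes), and 0 and 1 in those libraries with no block (0.170% of all genes).

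The median correlation of os gene and partner (0.519) was 0.543 with 50 principal components, 0.631 as Pearson r, 0.592 with at least 200 UMIs of both genes, and 0.462 to 0.520 without each library. The Ctcflos difference at ZT4 turned to -0.026 without Adipo nuclei, also chosen after seeing the data, and os genes called there went to 0. The Hk1os difference in Ctrl ranged from -0.336 to 0.0516 without each library, and was above 0 without Ctrl ZT16 replicate 1. RLE factors changed none of the counts of os genes and partners over whole libraries. The cause of the other changes was not tested. Depth limited which os genes were tested: within PCT 111 to 126 of the 237 had enough UMIs, and within PST 131 to 143.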
